A study of Mus musculus with 72 samples.

Results

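The comparison asks which blood transcript differences between mice given low-dose lead (Pb) and control mice depended on when the blood was drawn. It covers 44 of the 72 arrays of the study, all those of the low-dose and control mice, and was chosen by dose and collection alone. For every gene, the low-dose minus control difference after exposure was subtracted from the same difference after recovery, and this interaction was tested for 12589 of 18194 genes measured by a probe set with 1 gene symbol. A positive interaction means that the low-dose level relative to control was higher after recovery than after exposure. A negative interaction means that it was lower.

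The animals were female Balb/c mice, 9 weeks old by the labels. Control mice drank water with 0 µg/mL Pb and low-dose mice water with 5 µg/mL Pb, given as lead acetate trihydrate, for 2 weeks. All animals then received water without Pb for 2 weeks. Blood was taken by submandibular bleed at the end of each period, giving 7 control and 15 low-dose arrays at each collection. All low-dose mice were bled at the first collection, but only part of the control mice were, and the labels do not say whether the second control samples came from those animals. P-values treat all samples as independent, although the second low-dose samples came from mice already bled at the first collection. Both groups were older at the second collection, so the control arrays carry the change between collections that occurs without Pb.

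Lead enters red cells, where it inhibits enzymes of heme synthesis and the nucleotidase encoded by Nt5c3, and it can occupy calcium and zinc sites of proteins. Whole blood RNA mixes the transcripts of reticulocytes, platelets, lymphocytes, monocytes and granulocytes. A transcript level in such RNA therefore follows both the number of cells of a type and the RNA in each of them, and fewer cells and less RNA per cell cannot be told apart here.

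Levels are log2 values normalised by robust multi-array averaging (RMA), so a difference of 1 is a doubling. Arrays correlated between 0.958 and 0.995, and 0 pairs were identical. The 3' minus 5' difference of the Gapdh control probe sets, a measure of RNA integrity in which a larger value means fewer intact 5' ends, averaged 0.54 in control and 0.53 in low-dose arrays at the first collection, and 0.91 and 0.93 at the second. The same measure for Actb averaged 0.37 in control and 0.44 in low-dose arrays at the first collection, and 0.68 and 0.67 at the second, so its change between collections was larger in controls. The spread of relative log expression (interquartile range) averaged 0.316 in control and 0.249 in low-dose arrays at the first and 0.323 and 0.324 at the second collection. Without the 3 arrays of widest spread 2 of the 3 called genes below were still called.

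3 genes passed the threshold of an adjusted p under 0.05, which is 0.0238% of the genes tested (limma with Benjamini-Hochberg adjustment). Slc12a2 fell relative to control between the collections (1 gene, 0.00794%), while Dapk1 and Cdkn2b rose (2 genes, 0.0159%). At an unadjusted p under 0.05 the interaction was higher for 599 genes (4.76%) and lower for 465 (3.69%), together 8.45% of those tested. The lower count was 299 without control exposure array 5 and 730, 800 and 738 without control exposure array 1 or 3 or control recovery array 4. Array weights turned the split to 1055 higher and 1716 lower. Rescaling the arrays gave more calls and another split. Quantile normalisation gave 44 higher and 34 lower calls and cyclic loess 23 and 22, beside 2 and 1 as deposited. Leaving out single arrays gave between 1 call, for example without control exposure array 2, and 133, without control recovery array 1.

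Slc12a2 encodes the sodium-potassium-chloride cotransporter NKCC1, which loads chloride into cells and serves cell volume regulation. After exposure its level ran from 5.42 over a median of 5.72 to 6.06 in control arrays and from 6.28 over 6.49 to 6.71 in low-dose arrays. After recovery it ran from 5.85 over 6.47 to 6.85 in control arrays and from 5.90 over 6.17 to 6.63 in low-dose arrays. All 15 low-dose arrays lay above every control array after exposure, and after recovery the groups overlapped throughout.

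The low-dose minus control difference of Slc12a2 was 0.73 after exposure and -0.17 after recovery, an interaction of -0.90 ± 0.15 (SE, 95% interval -1.19 to -0.60, adjusted p = 0.000829 with limma). Control arrays differed more between collections (0.64) than low-dose arrays did (-0.25). The call held without any 1 of the 44 arrays. With the mean levels of 6 blood cell marker lists as covariates the interaction was -0.49, with an adjusted p of 0.554. 2 further probe sets of the gene were near or below the median signal of the array and gave -0.13 and -0.35.

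Dapk1 encodes a calcium/calmodulin-regulated kinase associated with cell death. After exposure it ran from 6.37 over a median of 6.51 to 6.72 in control arrays and from 5.94 over 6.21 to 6.48 in low-dose arrays. After recovery it ran from 5.59 over 5.88 to 6.13 in control arrays and from 5.89 over 6.17 to 6.51 in low-dose arrays. After exposure 12 of 15 low-dose arrays lay below all controls, and after recovery 8 of 15 lay above all controls.

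Its low-dose difference was -0.31 after exposure and 0.29 after recovery, giving an interaction of 0.60 ± 0.12 (SE, 95% interval 0.36 to 0.83, adjusted p = 0.0149 with limma). The control level differed by -0.65 between collections and the low-dose level by -0.052. Another Dapk1 probe set gave 0.43. The call was lost without control exposure array 2 or control recovery array 3 or 5 (highest adjusted p 0.0671), and with the cell marker covariates (0.23, adjusted p = 0.994).

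Cdkn2b encodes the cell cycle inhibitor p15INK4b, which blocks the kinases partnered with D-type cyclins. Control arrays ran from 4.51 over a median of 4.81 to 4.96 after exposure and from 4.05 over 4.24 to 4.47 after recovery. Low-dose arrays ran from 3.84 over 4.49 to 4.80 and from 4.21 over 4.47 to 4.87. As for Dapk1, the low-dose level stayed between the control levels of both collections, with 9 of 15 arrays below all controls after exposure and 7 of 15 above all controls after recovery.

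The low-dose difference of Cdkn2b was -0.32 after exposure and 0.27 after recovery, and the interaction 0.60 ± 0.12 (SE, 95% interval 0.36 to 0.84, adjusted p = 0.0217 with limma). It was called without 38 of the 44 arrays and lost without control exposure array 2 or 6 or control recovery array 3, 5, 6 or 7, with adjusted p up to 0.0941. It was also lost when the 44 arrays were fitted alone (0.0547), without the 3 arrays of widest relative log expression (0.0879), and with the cell marker covariates (0.44, adjusted p = 0.549).

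**Figure D1:**
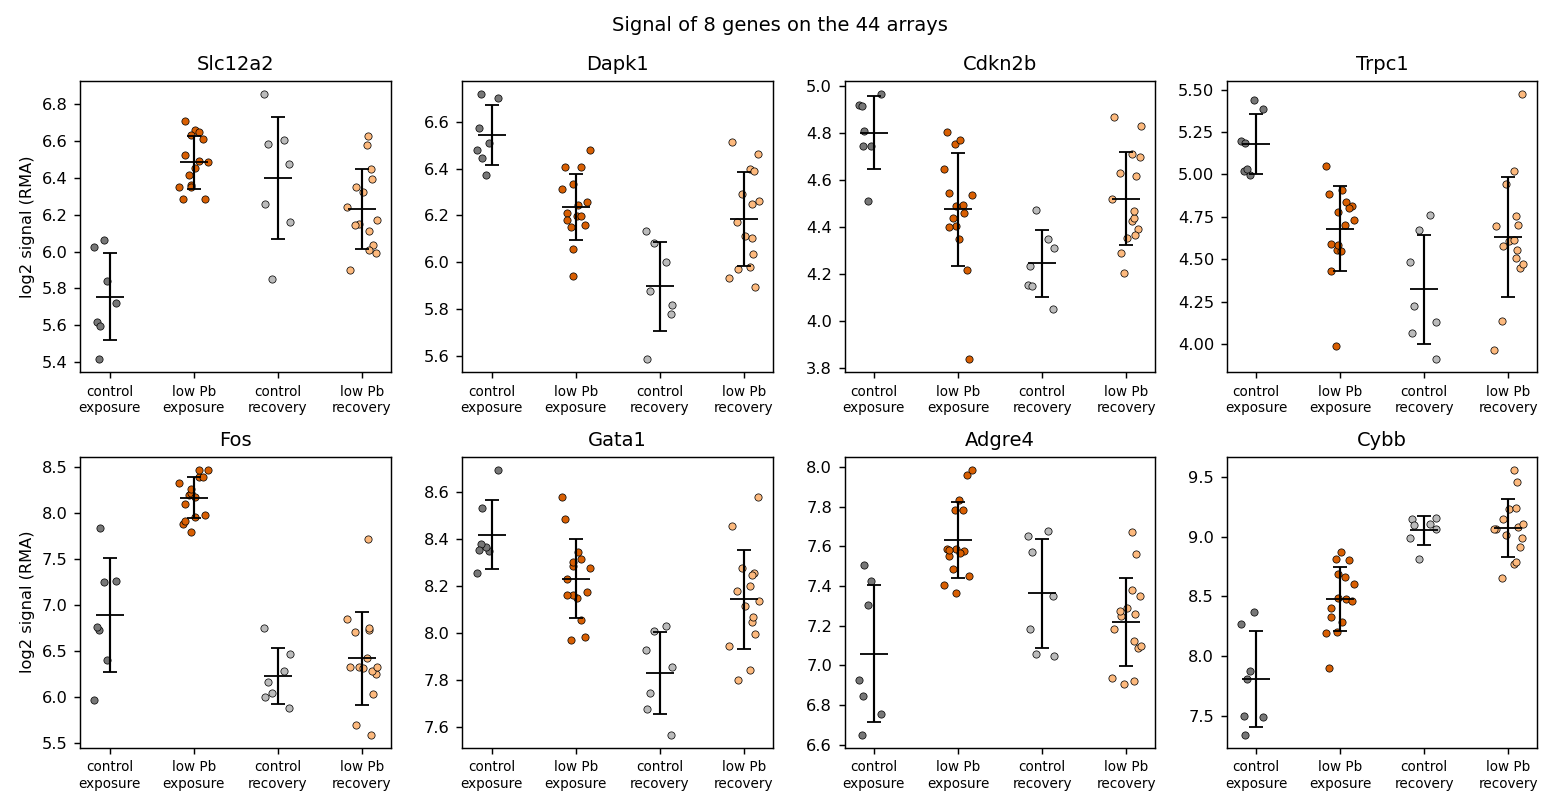
Log2 signal (vertical axis) of 8 genes on each of the 44 arrays, in the control and low-dose groups after exposure and after recovery. Each point is 1 array, the horizontal mark is the group mean and the bar the SD. All 15 low-dose arrays of Slc12a2 lie above every control array after exposure, and the groups overlap after recovery.

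All 3 called genes had low-dose differences of opposite sign at the collections, with the larger one after exposure. In all 3 the level differed more between collections in control than in low-dose mice. The same held for most of the 20 genes with the smallest p, of which 18 had opposite signs and 18 the larger change in controls. Among the 1064 genes at an unadjusted p under 0.05, 945 (88.8%) had opposite signs, beside 51.3% of all genes tested. The change was larger in controls for 872 of them (82.0%), beside 64.7% of all genes tested. These counts come from the same arrays as the interaction and describe it.

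The change between collections was itself wide. Between the collections 4544 genes (36.1% of those tested) differed in control mice and 5552 (44.1%) in low-dose mice at an adjusted p under 0.05 with limma. Low-dose and control mice differed in 164 genes after exposure (1.3%) and in 0 after recovery, where 295 genes (2.34%) had an unadjusted p under 0.05. Of the 164 genes, 154 had an interaction at an unadjusted p under 0.05 and 3 an interaction past the threshold, beside 8.45% and 0.0238% of all genes. The exposure difference is a term of the interaction, so this overlap and the medians that follow describe genes selected by that difference and are no separate result. The median difference of the 140 genes higher after exposure (1.11%) was 0.44 then and 0.0037 after recovery, and that of the 24 lower genes (0.191%) was -0.34 and 0.11. That count of 164 ranged from 35 without control exposure array 5 to 329 without control exposure array 3.

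**Figure D2:**
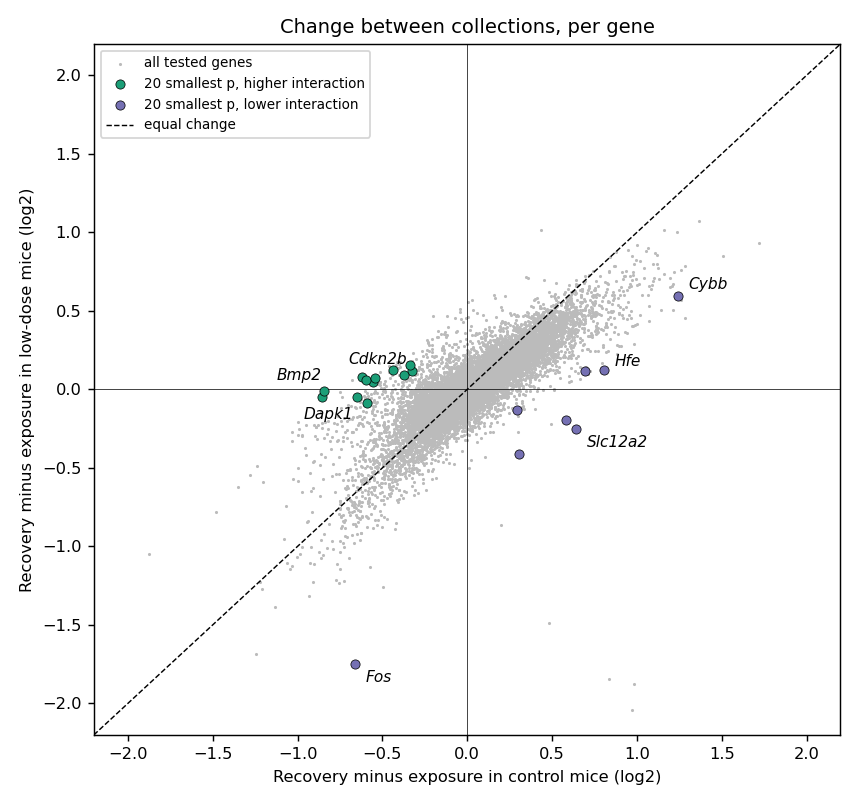
Recovery minus exposure difference (log2) in control mice (horizontal axis) against low-dose mice (vertical axis) for the 12589 genes tested, with the 20 genes of smallest interaction p in colour and a dashed line of equal change. Slc12a2 has a control change of 0.64 and a low-dose change of -0.25, and most coloured genes lie near 0 on the low-dose axis and away from 0 on the control axis.

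The next 17 genes by p did not pass the threshold (adjusted p from 0.0513 to 0.0738 with limma). Of these, 10 had a positive interaction. Trpc1, a subunit of cation channels, had 0.81 ± 0.18 (SE). Bmp2, a ligand of the bone morphogenetic protein receptors, had 0.84 ± 0.19. The others were the erythroid and megakaryocytic transcription factors Gata1 (0.50) and Tal1 (0.62), the serotonin transporter Slc6a4 (0.69), the sphingosine-1-phosphate exporter Mfsd2b (0.66), the adhesion molecule Esam (0.56), the thromboxane synthase Tbxas1 (0.47), and Ly6g6c (0.45) and Cdhr4 (0.49). Another probe set of Mfsd2b, above the median signal on all 72 arrays, gave only 0.13, and a dim one of Trpc1 gave 0.065. Other probe sets gave 0.71 and 0.48 for Ly6g6c and 0.39 for Cdhr4.

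Trpc1 ran from 4.99 over a median of 5.19 to 5.44 in control arrays after exposure, and 14 of 15 low-dose arrays lay below that range. Its low-dose arrays ran from 3.99 over 4.73 to 5.05 after exposure and from 3.96 over 4.61 to 5.47 after recovery, when control arrays ran from 3.91 over 4.22 to 4.76. Gata1 ran from 8.25 over 8.37 to 8.69 in control arrays after exposure and from 7.57 over 7.85 to 8.03 after recovery, while low-dose arrays ran from 7.97 over 8.23 to 8.58 and from 7.80 over 8.13 to 8.58. For Gata1, 8 of 15 low-dose arrays lay below all controls after exposure and 11 of 15 above all controls after recovery.

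The other 7 had a negative interaction. Fos, a subunit of the AP-1 transcription factor induced within minutes of a stimulus, had -1.09 ± 0.25 (SE). Its control arrays ran from 5.97 over a median of 6.77 to 7.85 after exposure and its low-dose arrays from 7.79 over 8.20 to 8.47. After recovery control arrays ran from 5.88 over 6.16 to 6.75 and low-dose arrays from 5.60 over 6.33 to 7.72. Fos and Adgre4 are the 2 of the 20 whose level differed more between collections in low-dose mice (-1.75 for Fos, -0.41 for Adgre4) than in controls (-0.66 and 0.30).

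Hfe, the hemochromatosis protein that takes part in sensing body iron, had an interaction of -0.68 ± 0.15 (SE). Its low-dose difference was 0.59 after exposure and -0.088 after recovery. Another, dim probe set of Hfe gave -0.13. Cybb, the membrane subunit of the phagocyte NADPH oxidase, had -0.65, with 10 of 15 low-dose arrays above all controls after exposure. The remaining members were Adgre4, a macrophage adhesion receptor (-0.72), the acid ceramidase Asah1 (-0.43), the collagen galactosyltransferase Colgalt1 (-0.58) and Ear3 (-0.78), one of a family of closely related eosinophil ribonucleases that the probes may not separate. Another probe set of Colgalt1, above the median signal on all 72 arrays, gave only -0.15. Other probe sets gave -0.65 for Adgre4 and -0.33 and -0.50 for Cybb.

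The gene lists that stood farthest from the other genes were blood cell markers. Over all 12589 genes the median interaction was -0.012, and the following counts at an unadjusted p under 0.05 stand beside the 4.76% and 3.69% above. The platelet and megakaryocyte list had the highest median, 0.47 over the 35 tested of its 37 members. All 35 were positive, 32 of them (91.4%) at an unadjusted p under 0.05, and 0 passed after adjustment over all genes.

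The mean level of the platelet list ran from 9.47 over a median of 9.66 to 9.93 in control arrays after exposure and from 8.97 over 9.43 to 9.64 in low-dose arrays. After recovery it ran from 9.11 over 9.37 to 9.60 in control arrays and from 9.23 over 9.52 to 10.04 in low-dose arrays. After exposure 9 of 15 low-dose arrays lay below all controls, and after recovery 5 of 15 lay above all of them. The median low-dose difference over its members was -0.24 after exposure and 0.22 after recovery.

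The 4 platelet genes with the smallest p all missed the threshold at an adjusted p of 0.0738 with limma. Gp6, the collagen receptor of platelets, had an interaction of 0.54 ± 0.13 (SE), Treml1, a receptor of platelet granules, 0.57, Gp5, a subunit of the von Willebrand factor receptor, 0.55, and Alox12, the platelet arachidonate lipoxygenase, 0.57. For Gp5, 12 of 15 low-dose arrays lay below all controls after exposure and 9 of 15 above all controls after recovery. The counts of the platelet list lay between 31 and 32 without single arrays. With the cell marker means as covariates, which include the mean of this very list, its median was -0.0036.

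Gata1 and its partners bind GATA motifs in the promoters of many megakaryocytic genes, and because Gata1 and Tal1 stood among the 20 genes above, the promoter windows of Gp6 and Gp5 are shown with the motif AGATAA, or TTATCT on the other strand, in capitals. The windows run from 250 bases before to 50 after the start of transcription and come from RefSeq on GRCm38.p6, with Gp6 at chr7:4397695-4397994 and Gp5 at chr16:30310732-30311031, both on the minus strand.
Gp6: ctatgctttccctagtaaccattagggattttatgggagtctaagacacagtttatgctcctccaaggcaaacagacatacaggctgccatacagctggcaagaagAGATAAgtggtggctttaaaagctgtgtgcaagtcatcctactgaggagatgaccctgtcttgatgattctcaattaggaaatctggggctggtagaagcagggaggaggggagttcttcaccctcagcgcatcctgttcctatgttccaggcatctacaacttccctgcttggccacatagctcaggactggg
Gp5: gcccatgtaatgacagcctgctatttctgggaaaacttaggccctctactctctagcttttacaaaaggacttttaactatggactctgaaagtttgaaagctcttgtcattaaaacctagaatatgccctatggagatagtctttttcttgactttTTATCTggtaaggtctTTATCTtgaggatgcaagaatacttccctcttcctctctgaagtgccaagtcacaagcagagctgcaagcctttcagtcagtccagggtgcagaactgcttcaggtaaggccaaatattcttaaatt
The Gp6 window holds 1 match and the Gp5 window 2. They were chosen for holding a match, and those of Treml1 and Alox12, the other platelet genes described above, and of Gata1, Dapk1 and Cdkn2b hold 0. Of the 28 tested platelet list genes with a window, 6 (21.4%) hold a match, beside 8.12% of the 10136 tested genes with a window and 11.2% of all 32851 windows. A match is a description of the sequence and not a binding site.

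The B cell list had the lowest median, -0.43 over the 23 tested of its 26 members, all negative and 11 at an unadjusted p under 0.05. Its mean level ran from 6.90 over a median of 7.88 to 8.75 in control arrays after exposure and from 7.85 over 8.24 to 8.75 in low-dose arrays. After recovery it ran from 8.54 over 8.73 to 9.17 in control arrays and from 8.38 over 8.76 to 9.06 in low-dose arrays. The control arrays of the first collection were the most spread (SD 0.67, n = 7, against 0.22, n = 15, in low-dose arrays), and the groups overlapped at both collections.

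Without control exposure array 1 or 3 the number of B cell genes at an unadjusted p under 0.05 was 19 or 21, and without control exposure array 5 or 6 it was 7 or 5, of 23. Blk, a kinase of B cell receptor signalling, had an interaction of -0.63 ± 0.20 (SE, adjusted p = 0.121 with limma), the chemokine receptor Cxcr5 -0.58, the low-affinity IgE receptor Fcer2a -0.54 and Ly86, a partner of an innate receptor of B cells, -0.52. Their low-dose differences lay between 0.49 and 0.62 after exposure and between -0.035 and 0.078 after recovery.

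The MHC class II list, which presents antigen to helper T cells and is expressed by B cells and monocytes, had a median of -0.41, with 16 of 17 members negative and 11 at an unadjusted p under 0.05. H2-Ob had an interaction of -0.63, H2-Ea -0.57, H2-Oa -0.55 and H2-Aa -0.47, with adjusted p between 0.109 and 0.188 (limma). The count was 4 without control exposure array 5 or 6 and 7 without control recovery array 5. The median low-dose difference of the list was 0.42 after exposure and 0.022 after recovery.

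The monocyte and macrophage list had a median of -0.23, with 29 of 31 members negative and 14 at an unadjusted p under 0.05. Its mean level ran from 7.10 over a median of 7.34 to 7.69 in control arrays after exposure and from 7.43 over 7.69 to 7.96 in low-dose arrays, 8 of 15 of which lay above all controls. After recovery 3 of 15 low-dose arrays lay above and 2 below the control range. Besides Cybb and Adgre4, its smallest p belonged to Mpeg1, a pore-forming protein of phagocytes (-0.53), and the lysosomal glycoprotein Cd68 (-0.60), both at an adjusted p of 0.0738 with limma.

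**Figure D3:**
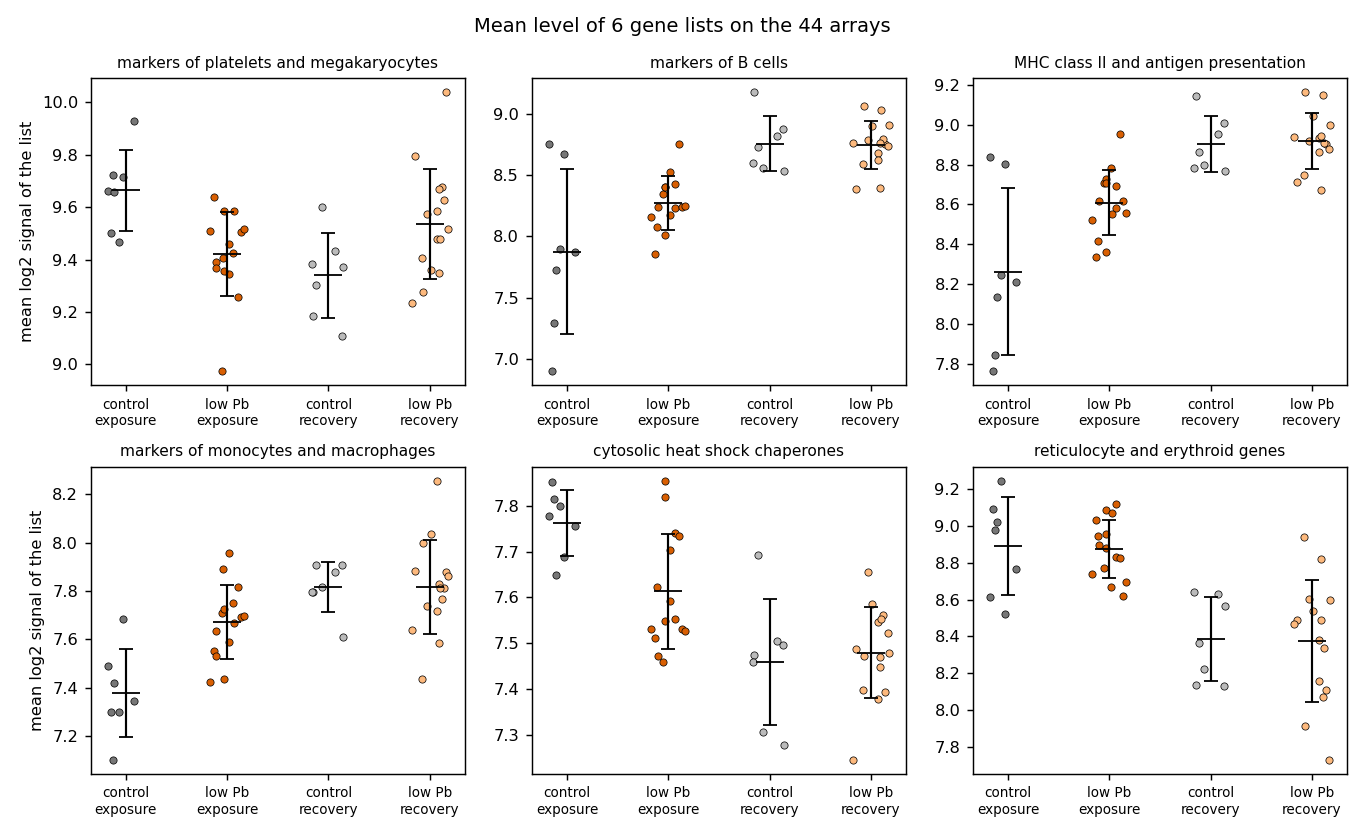
Mean log2 signal over the tested members of 6 gene lists (vertical axis) on each of the 44 arrays by group. Points are arrays, horizontal marks are group means and bars are SD. Platelet markers are lower in low-dose than control arrays after exposure (means 9.42 and 9.66) and higher after recovery (9.54 and 9.34), and the means of the monocyte, MHC class II and B cell lists are higher in low-dose arrays after exposure and near each other after recovery.

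Markers of other leukocytes had medians nearer to that of all genes. The T cell list had a median interaction of 0.018, with 1 of 25 members at an unadjusted p under 0.05 (Trat1, an adaptor of the T cell receptor, 0.32). The neutrophil list had -0.050 and 1 of 23 (the gelatinase Mmp9, -0.44). The NK and cytotoxic list had -0.13 and 1 of 18 (the receptor Klrd1, -0.35). The eosinophil and basophil list had 0.083, with Gata2 (0.42) and the histamine-forming enzyme Hdc (0.40) higher and Il5ra (-0.29) lower at an unadjusted p under 0.05, of 13 (3 lower without control exposure array 7).

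Among plasma cell and immunoglobulin genes, Irf4, a transcription factor of plasma cells and activated B cells, had an interaction of -0.56 ± 0.14 (SE, adjusted p = 0.0738 with limma). The variable segment Ighv14-2 had -0.69 and the B cell endoplasmic reticulum protein Mzb1 -0.40. Of that list 3 of 15 were lower and 1 higher at an unadjusted p under 0.05, and 6 were lower without control exposure array 1 or 3. Of 27 listed markers of the face, the site of bleeding (skin, salivary gland and muscle genes), 25 were on the array and 11 were tested. Of these 11, 0 had an unadjusted p under 0.05. Whether tissue of the face was present in the samples was not tested, and gland transcripts high on some arrays are described under other observations.

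The erythroid list had a median of -0.052 over 30 genes tested, and its mean level was 8.89 ± 0.26 (SD, n = 7) in control and 8.88 ± 0.16 (SD, n = 15) in low-dose arrays at the first collection, and 8.38 ± 0.23 and 8.38 ± 0.33 at the second. The level was lower at the second collection by a like amount in both groups. Within the list 6 members were higher at an unadjusted p under 0.05, among them Gata1, Tal1, the erythropoietin receptor Epor (0.45) and the transcription factor Nfe2 (0.42), genes that megakaryocytes also express in part.

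The genes tied to lead toxicity showed no interaction past the threshold. Alad, the delta-aminolevulinate dehydratase that lead inhibits, had 0.042 ± 0.19 (SE, 95% interval -0.33 to 0.42). Alas2, the erythroid enzyme of the initial step of heme synthesis, had 0.011 (-0.090 to 0.11), and Fech, which inserts iron into heme, -0.025 (-0.12 to 0.074). Alas2 and Fech averaged 13.80 and 13.53, near the highest value on the arrays (14.14). Whether their probe sets can still respond at that level was not tested, so these narrow intervals do not show that the transcripts kept their level. Of the 15 heme synthesis genes tested, 0 had an unadjusted p under 0.05, and the median was -0.0030.

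Nt5c3, the nucleotidase of red cells, had an interaction of -0.21 (-0.75 to 0.34), and Tfrc, the transferrin receptor, 0.70 (-0.12 to 1.51), with intervals that span 0. The metallothioneins Mt1 and Mt2, which bind heavy metals, had 0.10 (-0.13 to 0.34) and 0.16 (-0.17 to 0.49). Of 19 iron handling genes only Hfe reached an unadjusted p under 0.05, and of 5 globin genes 0 did. Among 13 lead-binding and calcium-mimicry targets, the phosphodiesterase Pde1b (-0.36) and the kinase Camk2d (-0.26) did.

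Immediate early genes had a median interaction of -0.12, with 7 of 27 lower and 0 higher at an unadjusted p under 0.05. Dusp1, a phosphatase that ends MAP kinase signalling, had -0.76 ± 0.22 (SE, adjusted p = 0.0981 with limma). It ran from 7.69 over a median of 8.25 to 9.00 in control arrays and from 8.87 over 9.37 to 9.93 in low-dose arrays after exposure, 14 of 15 above all controls. After recovery it ran from 7.63 over 7.79 to 8.33 and from 7.18 over 8.17 to 9.13. The related Dusp5 had -0.25 and Ier2 -0.29.

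Cxcr4, the receptor of the chemokine Cxcl12, had a low-dose difference of 0.75 after exposure and 0.35 after recovery, an interaction of -0.40 (-0.85 to 0.051). Cirbp, a cold-inducible RNA-binding protein, had -0.71 (-1.19 to -0.22, adjusted p = 0.183 with limma). The glucocorticoid-induced Tsc22d3 had -0.26 (-0.56 to 0.047). Cox16, an assembly factor of cytochrome oxidase, was the reverse case, with a difference of -0.016 after exposure and -0.46 after recovery. Its interaction was -0.44 ± 0.14 (SE, adjusted p = 0.149 with limma). Without single arrays that interaction ran from -0.53 to -0.29, with adjusted p up to 0.353 (limma). Control recovery array 4 stood at 8.30 for Cox16, and control recovery arrays 1, 2, 3 and 5 between 6.90 and 7.35. The values of the remaining control recovery arrays are not given here. In the check for control arrays standing apart, described below, none was flagged for Cox16.

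Further lists had between 6.78% and 22.2% of their members at an unadjusted p under 0.05, beside 8.45% of all genes tested. The shares were 12.5% for NF-kappaB targets, 22.2% for circadian genes and 6.78% for RNA-binding and splicing genes. In the NF-kappaB list 3 of 24 were lower, the cytokine Il18 (-0.44), Cd83 (-0.55) and the adhesion molecule Icam1 (-0.29), and the list median was -0.15. That count was 7, 8, 7, 6 and 5 without control exposure array 1 or 3, control recovery array 4, low-dose exposure array 12 or low-dose recovery array 9, and 10 with array weights. With cell marker covariates 3 were higher and 0 lower. In the circadian list 4 of 18 were lower, among them Clock (-0.29) and Tef (-0.20). In the list of RNA-binding and splicing genes 4 of 59 were lower, among them Srsf6 (-0.29), Luc7l3 (-0.31) and Hnrnpa1 (-0.28). This count was 8 and 9 without control exposure array 3 or control recovery array 4, 2 without control exposure array 6 or 7 or control recovery array 3 or 7, and 20 with array weights.

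The lists that hold the called genes were compared with the 8.45% of all genes tested at an unadjusted p under 0.05. With the called genes included, the shares were 10% for cell cycle inhibitors, 15.4% for apoptosis and 26.7% for cell volume. Among 20 cell cycle inhibitors and p53 targets, Cdkn2b and Phlda3 (0.32) were higher at an unadjusted p under 0.05. Among 26 genes of apoptosis, Dapk1, the inhibitor of apoptosis Birc2 (0.55) and the BH3 protein Bid (0.29, named after its value was seen) were higher and the inflammatory caspase Casp1 (-0.33) was lower. Without control exposure array 3 or control recovery array 4 this list had 2 higher and 3 lower members, and without control exposure array 3 the list of cell cycle inhibitors had 3 lower. Among 15 genes of cell volume and ion transport, Trpc1 and the channel subunit Lrrc8c (0.24) were higher and Slc12a2 and the calcium pump Atp2b1 (-0.33) lower.

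In the cell cycle list 3 of 28 were higher, with the ribonucleotide reductase subunit Rrm2 at 0.75, and the median was 0.091. The 2 dimmer probe sets of Rrm2 gave -0.052 and 0.38. The unfolded protein response list had 2 higher, among them the transcription factor Atf4 (0.36), and 3 lower, among them the sensor Ern1 (-0.32), of 23. Without control exposure array 5 or 6 it had 1 lower. Of 4 other probe sets of Ern1, the brightest gave 0.12. The interferon list had Ifit2 at 0.40 and Ifi44l at -0.52 as its only members under that p, of 35. Of 31 ribosomal protein, 48 oxidative phosphorylation and 31 proteasome genes, 1 each reached it. Of 19 cytochrome oxidase assembly genes, Coa3 (0.26) and Cmc1 (-0.36) were among 4 that did. Another Cmc1 probe set gave 0.20.

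**Figure D4:**
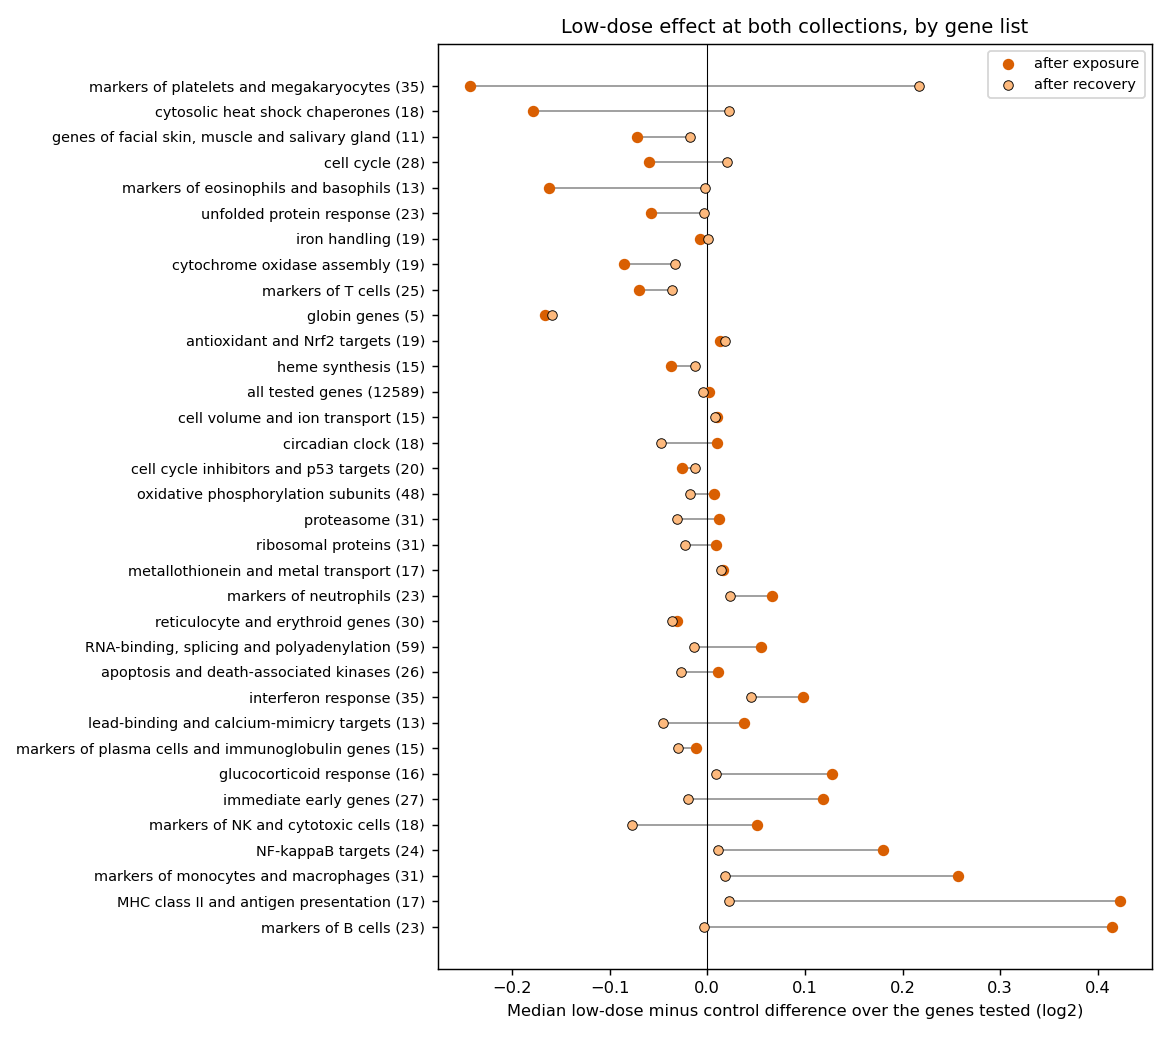
Median low-dose minus control difference (log2, horizontal axis) over the tested genes of each list after exposure (dark points) and after recovery (light points), with the number of genes in brackets and the lists ordered by the median interaction. Platelet markers go from -0.24 to 0.22, B cell markers from 0.41 to -0.0037, and all tested genes stay within 0.01 of 0.

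The cytosolic heat shock chaperones had a median interaction of 0.19, with 7 of 18 members higher and 0 lower at an unadjusted p under 0.05. Dnajb4, a co-chaperone of Hsp70, had 0.58 ± 0.15 (SE, adjusted p = 0.0738 with limma), but 2 further Dnajb4 probe sets gave -0.011 and -0.060. Hsph1, the nucleotide exchange factor of Hsp70, had 0.58 (adjusted p = 0.102 with limma). Stip1, which links Hsp70 to Hsp90, had 0.46 (0.112), and the co-chaperone Bag3 0.24 (0.225). Hsph1 ran from 8.04 over a median of 8.33 to 8.48 in control arrays after exposure and from 7.44 over 7.76 to 8.27 in low-dose arrays. Of these, 13 of 15 lay below all controls, and after recovery 2 of 15 did. The inducible Hsp70 gene Hspa1b had -0.063 (-0.62 to 0.49) and its co-chaperone Dnajb1 -0.078 (-0.41 to 0.25).

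Chaperones made up most of the genes whose interaction differed between the doses. The low-dose and high-dose interactions share their 14 control arrays, so they were compared through the difference between the 2 doses, in which the controls cancel. High-dose mice received 50 µg/mL Pb (15 arrays after exposure, 13 after recovery). 8 genes passed the threshold, all higher, which is 0.0635% of those tested (limma), and 554 genes (4.4%) had an unadjusted p under 0.05. 7 of the 8 are chaperones or their partners, namely Hspa1b, Hsph1, Stip1, Dnaja1, Hsp90aa1, Chordc1 and the mitochondrial Hspd1. The eighth is Slc5a3, a myo-inositol transporter induced by osmotic stress.

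Hspa1b had the largest difference, 1.73 ± 0.23 (SE, adjusted p = 7.13e-07 with limma). After exposure it ran from 3.48 over a median of 4.13 to 5.15 in low-dose arrays and from 5.04 over 5.93 to 7.60 in high-dose arrays, 13 of 15 of which lay above all low-dose arrays. After recovery it ran from 2.74 over 3.23 to 3.55 and from 3.04 over 3.30 to 3.67. Its own interaction with control was -0.063 at the low and -1.80 at the high dose. Probes may not separate Hspa1b from its near-identical copy.

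Hsph1 differed by 0.89 ± 0.14 (SE, adjusted p = 5.28e-05 with limma), with an interaction of 0.58 at the low and -0.31 at the high dose. After exposure low-dose arrays lay mostly below and 14 of 15 high-dose arrays above the control range. Slc5a3 differed by 0.80, Dnaja1 by 0.69 and Stip1 by 0.64. Stip1 had an interaction of 0.46 at the low and -0.18 at the high dose. For the 3 genes called in the low-dose interaction the dose difference did not pass. It was -0.20 for Slc12a2, 0.20 for Dapk1 and 0.21 for Cdkn2b, and their high-dose interactions were -0.70, 0.40 and 0.39.

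Heat shock factor binds paired GAA and TTC units, and the promoter windows of Hspa1b and Hsph1 are shown because these genes had the largest differences between the doses. Capitals mark matches to GAANNTTC or TTCNNGAA, each of which reads the same on both strands, and overlapping matches run together. The windows have the same layout and source as above, Hspa1b at chr17:34959189-34959488 and Hsph1 at chr5:149636287-149636586, both on the minus strand.
Hspa1b: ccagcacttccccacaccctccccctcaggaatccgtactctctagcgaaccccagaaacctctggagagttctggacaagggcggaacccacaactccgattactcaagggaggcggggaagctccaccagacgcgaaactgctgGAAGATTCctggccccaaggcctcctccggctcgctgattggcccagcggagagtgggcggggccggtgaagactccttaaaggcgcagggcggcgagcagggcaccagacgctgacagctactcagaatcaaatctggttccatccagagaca
Hsph1: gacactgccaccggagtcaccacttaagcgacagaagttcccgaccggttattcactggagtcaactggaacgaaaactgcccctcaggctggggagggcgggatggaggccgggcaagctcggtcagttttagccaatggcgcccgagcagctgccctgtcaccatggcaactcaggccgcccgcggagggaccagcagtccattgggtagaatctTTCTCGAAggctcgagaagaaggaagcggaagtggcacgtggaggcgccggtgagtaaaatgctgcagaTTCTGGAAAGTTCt
The Hspa1b window holds 1 match and this Hsph1 window 3. The Stip1 window holds 0, and of 3 windows of Dnaja1 1 holds a match. Of the 16 tested cytosolic chaperones with a window, 11 (68.8%) hold a match, beside 14% of the 10136 tested genes with a window and 15.1% of all 32851 windows.

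**Figure D5:**
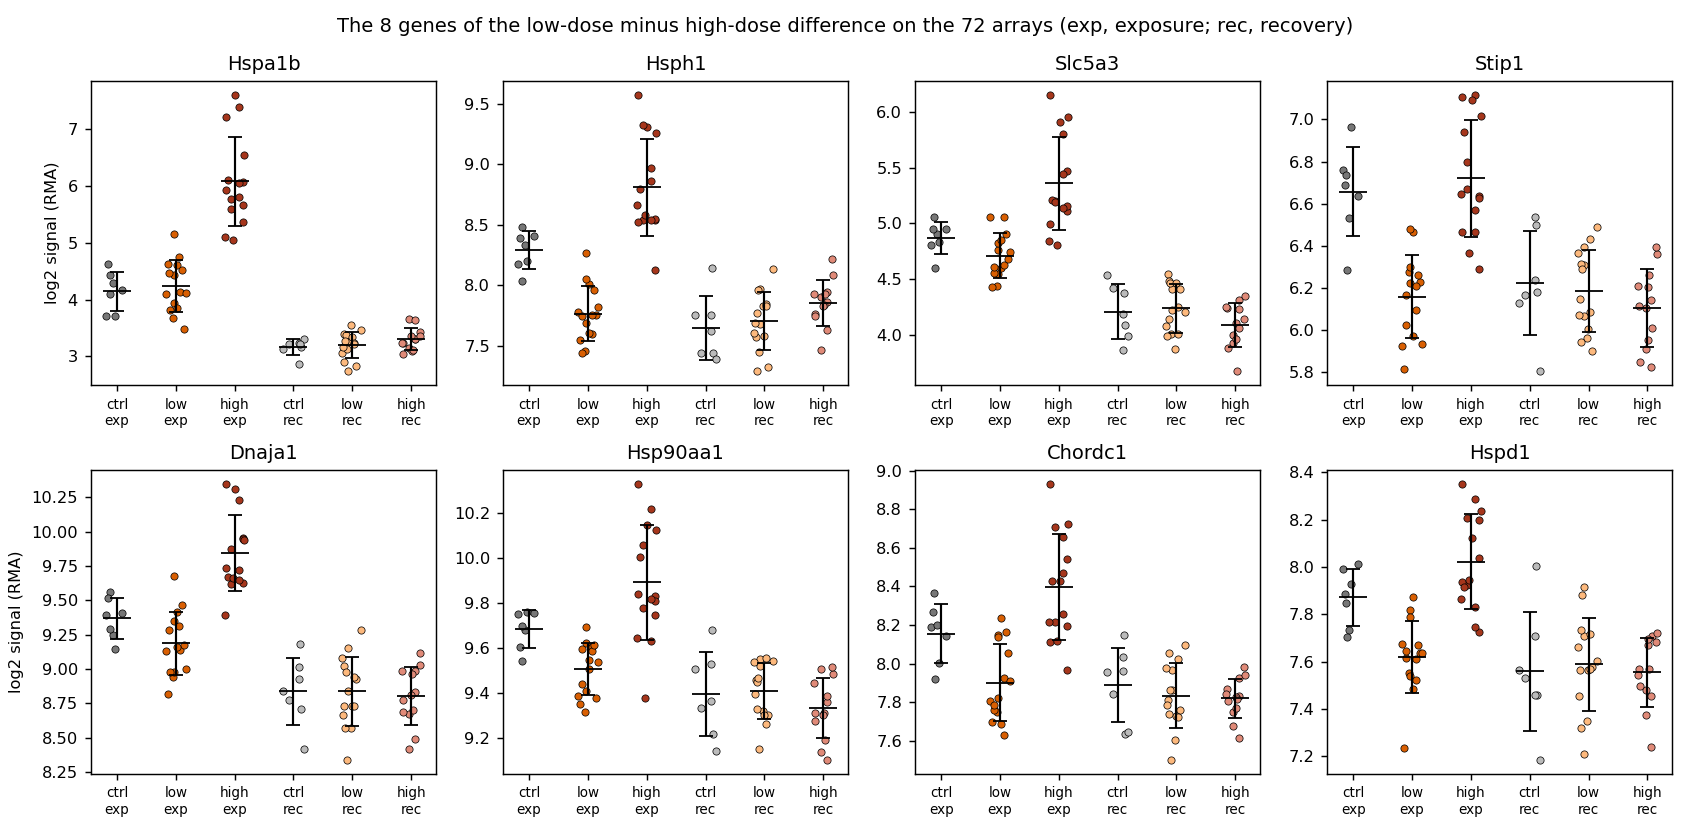
Log2 signal (vertical axis) on the 72 arrays of the 8 genes whose interaction differed between the low and the high dose, by control, low-dose and high-dose group after exposure and after recovery. Points are arrays, horizontal marks are means and bars are SD. For Hspa1b the high-dose mean after exposure is 6.08 and the low-dose mean 4.24, and all 3 groups have means between 3.16 and 3.30 after recovery.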

How the data were processed

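Whole blood RNA was extracted after stabilisation, depleted of globin transcripts, amplified and hybridised to oligonucleotide arrays, per the labels' protocols. The authors deposited log2 values from RMA, per the submitters' processing notes. Its software and version are not given in sources used here. RMA puts the arrays on a common scale and so assumes a like distribution of signal in every sample. Medians of the deposited arrays still ran from 4.05 to 4.22, so their distributions were not identical. The lowest deposited value was 0.41.

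Probe sets were named through the platform's annotation, and 34754 of 34958 with 1 symbol were matched to current mouse genes. A probe set was kept when above the median of all values (4.14) in at least 7 arrays, and each gene was represented by its probe set of highest mean. Group means of all 72 arrays in 6 groups were fitted with limma 3.58.1 in R 4.3.3 (66 residual degrees of freedom, empirical Bayes moderation), and p-values were adjusted by Benjamini-Hochberg over the 12589 genes. The labels call the replicates separate blood samples and say no more, so p-values reflect only the spread among these arrays. The number of arrays limits the precision.

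On simulated data of 12589 genes, 50 genes were changed at each size, all in the same simulation. The fit called 20% of interactions of 0.3 on the log2 scale and 78% of those of 0.6. It called 96% of those of 1, 100% of those of 1.5 and 11 unchanged genes. The noise was drawn independently for every gene and array, so it held no variation shared between genes. These shares therefore need not hold for the deposited arrays, where leaving out single arrays moved the calls between 1 and 133.

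Named genes were those past the threshold, the 20 with the smallest p, up to 4 members with the smallest p of each gene list described, a fixed set of lead-related and stress genes, and up to 5 genes in each direction of the dose difference; Hsp90aa1, Chordc1 and Hspd1 complete its 8 and were named after their values were seen. The members, the gene lists and these rules were chosen with earlier results of these data known. Lists are described by counts and medians. Alternatives covered scaling, filters, probe set choice, blocks, covariates and leaving out each array.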

Additional observations from a re-analysis of the deposited data

Results flagged for a closer look

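The following results met a fixed rule for a closer look. The low-dose effect differed between the collections, by the test of that difference, in Slc12a2 (-0.90), Dapk1 (0.60) and Cdkn2b (0.60). The interaction differed between the low and the high dose in Hspa1b (1.73), Hsph1 (0.89), Slc5a3 (0.80), Stip1 (0.64), Dnaja1 (0.69), Hsp90aa1 (0.46), Chordc1 (0.51) and Hspd1 (0.44).

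In the control groups of 7 arrays, 14 of 190 groups tested had 1 array standing apart from the others, where chance flags about 1 in 20. Control recovery array 5 was the one apart in 5 of them. It was low for Hspa1b (2.87, with the other 6 from 3.13 to 3.30), Alas2 (13.71, others 13.79 to 13.84) and Fech (13.46, others 13.55 to 13.60), and high for Fcer2a (9.96, others 9.13 to 9.46) and H2-Aa (12.48, others 11.85 to 12.04).

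Control recovery array 4 was low for Mpeg1 (9.06, others 9.30 to 9.43) and for the mean of the monocyte list (7.61, others 7.80 to 7.91). Control recovery array 1 was high for Ly6g6c (7.42, others 6.84 to 7.05). After exposure, control array 5 was low for Ier2 (7.38) and Icam1 (5.97), control array 6 for Ear3 (5.08) and Il5ra (3.61), and control array 4 for Tbxas1 (6.68), while control array 2 was high for Slc6a4 (8.93).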

How the results depend on the processing

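The number of genes with an interaction past the threshold, 3 as deposited, was 2 when the 44 arrays were fitted alone, 716 with array weights, 78 after quantile normalisation, 66 after centring, 45 after cyclic loess, 14 with a stricter signal filter, 14 with 18S ribosomal RNA and 19 with the 3' minus 5' differences as covariates. The 3 genes were among the calls under each of these except the fit of 44 arrays alone and the stricter filter (2 of 3 each). Under the stricter filter Cdkn2b was not tested, because its signal was too low to pass that filter. With the cell marker means as covariates limma called 0 genes, with 613 at an unadjusted p under 0.05. That covariate contains the members of 6 lists and is circular for them. The difference between the doses, 8 genes, had 15 calls with array weights, 13 over all probe sets and 33 with cell marker covariates.

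The deviations of same-numbered samples did not settle whether equal numbers mark the same mouse. Their correlation was over 0.1 in 3 of 7 control and 7 of 15 low-dose pairs. The median was 0.036 in control and 0.074 in low-dose pairs, beside -0.0097 and -0.0028 for other numbers. With a replicate block, which pairs samples by number, 45 genes were called and with a random replicate block 16. A sample correlated best with its own number in 0 of 7 control and 3 of 15 low-dose cases. Without single arrays the count ran from 1 to 133. It was 33, 1, 52, 36 and 5 without control exposure array 1, 2, 3, 4 and 7, and 133, 5, 1, 26 and 1 without control recovery array 1, 2, 3, 4 and 5. It was 12, 5 and 24 without low-dose exposure array 8, 11 and 12, and 14, 22, 44 and 66 without low-dose recovery array 5, 6, 7 and 10. The difference between the doses kept 7 to 9 calls. The number of low-dose calls after exposure, 164, was 276, 74, 329, 35, 48 and 107 without control exposure array 1, 2, 3, 5, 6 and 7, and 100, 104, 250 and 92 without low-dose exposure array 3, 9, 12 and 14. Leaving out the 3 arrays of widest relative log expression, an alternative chosen after seeing the data, gave 2 calls.

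The sign of some interactions turned, none of them called as deposited. With array weights Hspa1b was 0.086. With cyclic loess Alas2 was -0.046. With the probe set of largest spread Dnajb1 was 0.015 and Srsf6 0.024. With the 3' minus 5' covariates Hspa1b was 0.20 and Dnajb1 0.030. With cell marker covariates Nt5c3 was 0.0015, Gp6 -0.0036, Alox12 -0.010, Phlda3 -0.035, Casp1 0.022, Bid -0.052, Ifit2 -0.068 and Ifi44l 0.055. Without single arrays Hspa1b ran from -0.14 to 0.010, Alad from -0.021 to 0.11 and Alas2 from -0.0053 to 0.019. The cause of these changes was not tested. RMA compresses differences at low signal, which touches Cdkn2b and Hspa1b.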

Other observations

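The 3 lowest interaction estimates of all genes belonged to Obp1a (-3.02 ± 2.01, SE), Scgb1b2 (-2.86) and Mucl2 (-2.68), which encode secreted proteins of glands. None was called (adjusted p from 0.809 to 0.834 with limma), and they were named after their values were seen. All 3 were above a log2 value of 6 on the same 19 of the 72 arrays. On 6 further arrays at least 1 of them lay above 4, and on the rest all 3 lay below. In the groups compared here these were 1 of 7 control and 5 of 15 low-dose arrays after exposure, and 2 of 7 and 3 of 15 after recovery. Obp1a ran from 1.28 over a median of 1.79 to 9.40 in control arrays after exposure and from 1.25 over 4.54 to 10.42 in low-dose arrays. The origin of these transcripts was not tested.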
